A study of Mus musculus with 2 samples.

Results

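The B-lineage regulators described here are 10 mouse genes listed for roles in the B-cell programme or for belonging to the Ikaros family. They were examined for binding of hepatic leukemia factor (HLF), a PAR bZIP transcription factor, in blood progenitors. They are the Ikaros family genes Ikzf1, Ikzf2 and Ikzf3, the transcription factor genes Pax5, Ebf1, Foxo1 and Bcl11a, the adaptor gene Blnk, and the recombinase genes Rag1 and Rag2. These 10 genes were taken as a list of names, by role and not by a peak threshold, though with earlier results of these data known. All 10 were found among the 21523 protein-coding genes of the RefSeq table used. The measurement is a list of 3153 peaks, each 400 bp wide, from 1 chromatin immunoprecipitation sequencing (ChIP-seq) library of the FLAG-HLF group. Its cells were Lin-Sca-1+c-Kit+, a phenotype of stem and progenitor cells, and came from C57BL/6 mice aged 8 to 10 weeks, with the tissue labelled as blood. They carried MigR1 3xFLAG-HLF/HLF, a retroviral vector that makes HLF with a FLAG tag, and the immunoprecipitation used an anti-FLAG antibody. The FLAG ctrl group differed in carrying the MigR1 empty vector, and its library was not analysed here. Cells of both groups spent 5 days in culture with SCF (50 ng/ml), IL-3 (5 ng/ml), and both IL-7 and Flt3L (10 ng/ml). The HLF measured was therefore made from the vector in cultured cells, not from the cells' own Hlf gene. The labels do not say whether animals were pooled. A peak list holds no expression values, so the cells could not be checked against their marker genes. The list has no height or score and its read depth is unknown, so each peak is given by its position alone.

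B cells arise from multipotent progenitors in steps set by transcription factors. Ikaros proteins open the lymphoid path, EBF1 and FOXO1 start the B-cell programme, and PAX5 fixes it and shuts down other lineages. RAG1 and RAG2 then cut the immunoglobulin genes for V(D)J recombination, and BLNK links the assembled receptor to its downstream enzymes. PAR bZIP proteins bind palindromic DNA sites such as TTACGTAA as dimers.

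FLAG-HLF peaks lay inside 3 of the 10 genes: Ikzf3 with 2, Foxo1 with 2 and Pax5 with 1. Blnk had 1 peak at its start, outside the body. In all, 4 genes had a peak within 20 kb, body included. Within 100 kb of either end, Ikzf1, Ikzf2 and Rag1 added 1 peak each, which made 7 genes and 9 distinct peaks. Ebf1, Rag2 and Bcl11a had no peak within 100 kb. The map of the 10 loci shows these positions.

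**Figure D1:**
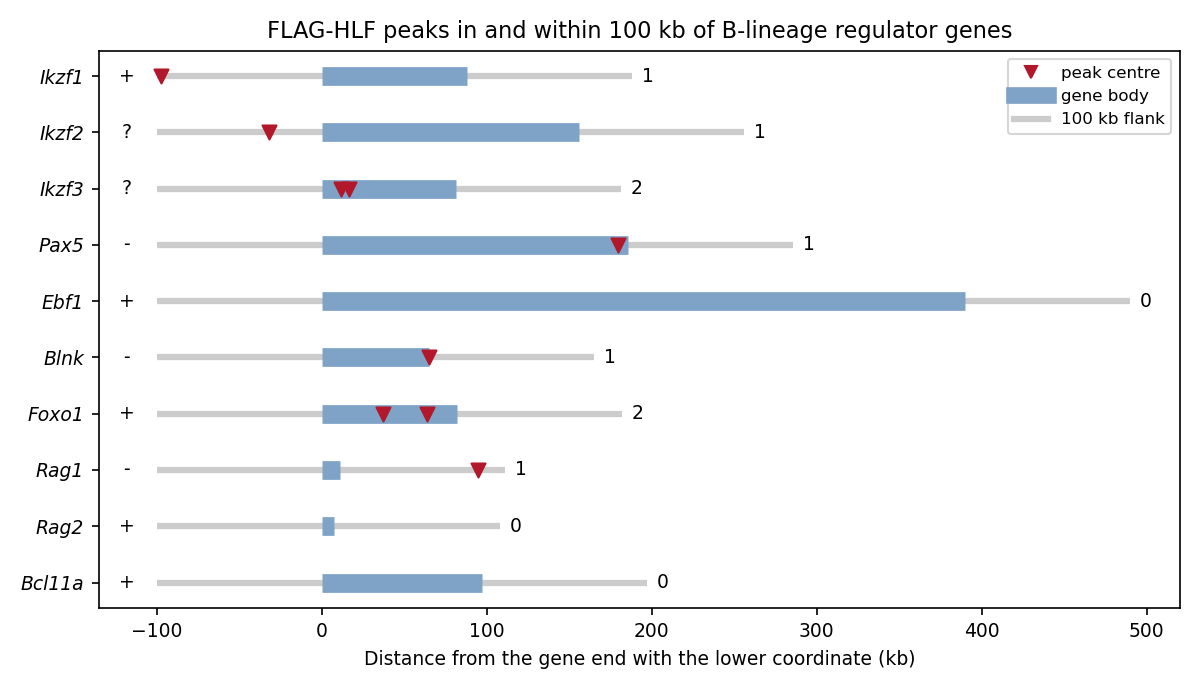
FLAG-HLF peak centres (red triangles) drawn to scale on each gene, in kb from the gene end with the lower coordinate. Blue bars are gene bodies, grey lines 100 kb flanks, the sign at the left is the strand (? where the promoter table has no entry), and the number at the right is the count of peaks. Ikzf3, Pax5 and Foxo1 hold peaks in the body, the Blnk peak sits at its upper end, and Ebf1, Rag2 and Bcl11a have 0.

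Read against all protein-coding genes, the counts were as follows. A peak centre lay in the body of 3 of 10 regulators (95% interval 6.67 to 65.2%) and of 6.94% of protein-coding genes. In the body or within 20 kb the count was 4 of 10 (12.2 to 73.8%), beside 15.3% of protein-coding genes. Within 100 kb it was 7 of 10 (34.8 to 93.3%), beside 36.9%. The background share lay inside the regulators' interval for each of these 3 windows. At least 2 peaks in the body were found in 2 of 10 regulators (2.52 to 55.6%) and in 1.04% of protein-coding genes. Among genes of like length it was 2.48% for Ikzf3 and 2.53% for Foxo1. This share was not computed for the lengths of the other regulators, so the 10 have no like-length background for 2 peaks. The regulators are long genes, with a median body of 84.9 kb against 17.4 kb for protein-coding genes, and long bodies hold more peaks. Protein-coding genes within 2-fold of each regulator's body length had a peak in the body in 14.4% of cases, within 20 kb in 21.7% and within 100 kb in 41.1%, averaged over the 10 regulators. Intervals cover counting error over genes only, and with 1 library no test over samples was possible.

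**Figure D2:**
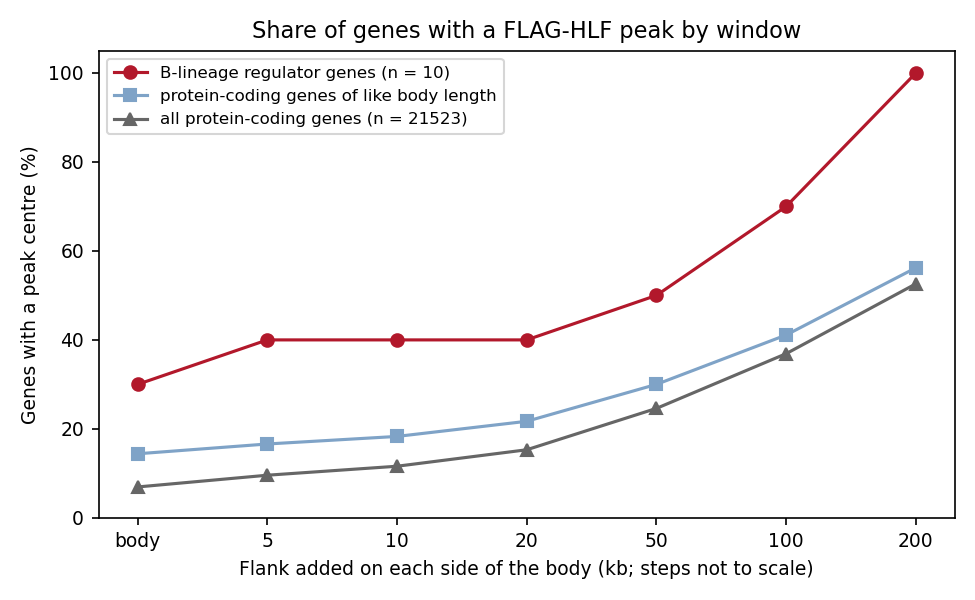
Percent of genes with a peak centre in the body or in the body plus a flank of 5 to 200 kb, for the 10 B-lineage regulators (red), protein-coding genes of like body length averaged over the regulators (blue) and all 21523 protein-coding genes (grey). The regulators' line lies above the other lines in every window, with 3 of 10 genes in the body and 10 of 10 within 200 kb. All protein-coding genes have 6.94 and 52.6% in these windows, and genes of like length 14.4 and 56.2%.

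Per length of sequence, the regulators' bodies held 5 peaks in 1.16 Mb, a density of 4.29 peaks per Mb (95% Poisson interval 1.39 to 10.0). Bodies of all protein-coding genes held 1.69 per Mb (1.62 to 1.78). With 100 kb on each side the regulators had 9 peaks in 2.97 Mb, or 3.03 per Mb (1.39 to 5.75), beside 1.61 per Mb (1.55 to 1.67) for all protein-coding genes. Both of the regulators' intervals reach down past the density of all genes.

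Blnk encodes the adaptor that SYK phosphorylates once the pre-B cell receptor signals. It lies on the minus strand of chromosome 19, 40928927 to 40994221 (gene ID 17060). Its peak, at 40994121 to 40994520, was centred 99 bp before the annotated start of the gene, and reached across the start into the body. The RefSeq promoter table (GRCm38.p6) gives the 250 bases before and 50 after each gene's start. It has 10 such windows for 8 of the regulators, and none for Ikzf2 and Ikzf3. The Blnk window lay wholly inside its peak, and no window of the other 7 genes was touched by one. Among the 17274 protein-coding genes with a window, 0.961% had one touched by a peak and 0.278% had one wholly inside a peak. The bases before the Blnk start are shown because they are the one stretch of bound sequence among the 10 genes that the sources used here hold. TTACNNAA, a loose pattern chosen after this sequence was seen, is wider than the PAR bZIP sites planned for the search. Capitals mark GGAAGT, letters of an ETS factor site, and TTACACAA, a match to TTACNNAA:
Blnk, chr19:40994222-40994471, minus strand: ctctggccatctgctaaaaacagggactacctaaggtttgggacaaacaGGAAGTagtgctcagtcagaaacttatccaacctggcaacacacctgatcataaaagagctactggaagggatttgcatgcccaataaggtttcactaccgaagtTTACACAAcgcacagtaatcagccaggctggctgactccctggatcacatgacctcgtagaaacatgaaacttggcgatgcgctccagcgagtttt

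None of the 3 planned 8-letter sites, TTACGTAA, TTACATAA and TTACGCAA on either strand, occurred in any of the 10 windows. They are rare in all 32851 windows, at 0.119, 0.938 and 0.167%, so their absence from 10 says little. TTACNNAA, chosen after the Blnk sequence was seen, matched in the windows of Blnk and Foxo1 (both strands searched; it covers all 3 planned sites and TTACACAA). In Blnk the match TTACACAA ran from 96 to 89 bases before the start, and its middle was 6.5 bp from the peak centre. In Foxo1 the match was TTACAGAA, from 183 to 176 bases before the start, in a window that no peak touched. The 2 stretches are set side by side, with the match in capitals:
Blnk, chr19:40994299-40994328, minus strand: actaccgaagtTTACACAAcgcacagtaat
Foxo1, chr3:52268143-52268172, plus strand: acacttgagaaTTACAGAAaataataacgg

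Sequence was at hand for promoter windows only. Most peaks of the list touch no window and were not searched, so the shares and distances below do not describe them. TTACNNAA was found in 73 of the 227 promoter windows touched by a peak (32.2%) and in 9.18% of all 32851 windows. The Blnk form, TTACACAA, was in 25 of the 227 (11.0%) and in 0.731% of all windows. Of the 80 distinct TTACNNAA matches in windows touched by peaks, 31 (38.8%) were centred within 20 bp of the peak centre, as the Blnk match was. Of those windows' bases, 8.33% lie that near. GGAAGT, also chosen after the sequence was seen, was in 32.6% of windows touched by peaks and 23.8% of all windows. In Blnk it lay 201 to 196 bases before the start, and again on the other strand at the first transcribed bases, 99.5 and 101.5 bp from the peak centre. Windows of Rag1 and Ebf1 also hold GGAAGT, and no peak touched them. A match is a run of letters and was not tested as a binding site.

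**Figure D3:**
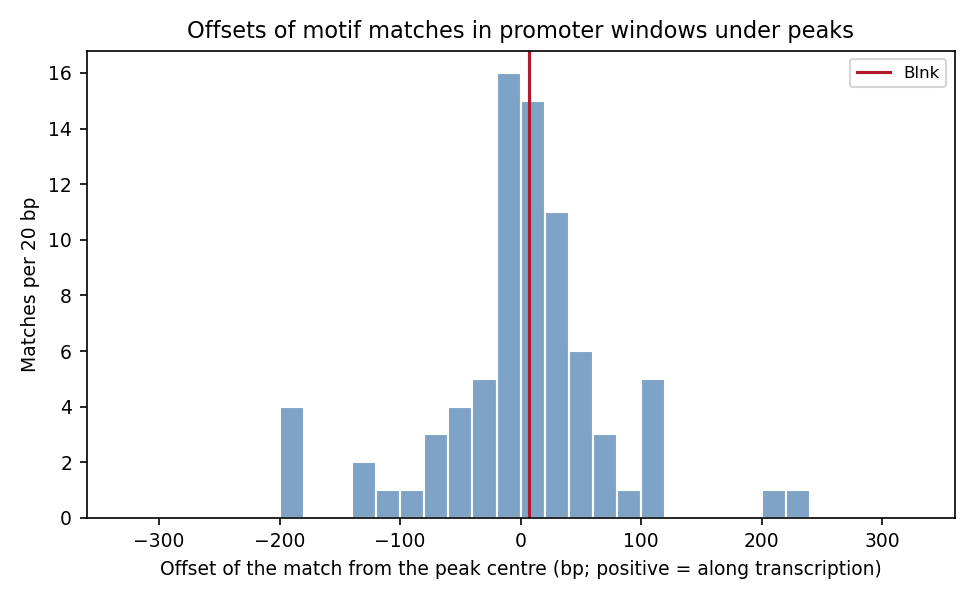
Number of TTACNNAA matches per 20 bp of offset from the peak centre (bp, positive along transcription), over the 80 matches in promoter windows touched by a peak. The matches gather at the centre, and the red line marks the Blnk match, 6.5 bp away. The Cgas match, 473.5 bp away, lies beyond the axis.

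No other protein-coding gene lay within 20 kb of the Blnk peak. The next protein-coding gene is Dntt, which encodes the terminal transferase that adds bases at V(D)J joints, and its body begins 35.0 kb from the peak on the far side of the Blnk start. The Blnk peak is also the nearest peak to Dntt. Within 200 kb of Blnk there was 1 further peak, and within 500 kb there were 4 in all. Of the 5289 genes within 2-fold of its length, 19.7% had at least 1 peak within 20 kb, body included.

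Among the Ikaros family, Ikzf3 held peaks in its body, while Ikzf1 and Ikzf2 had none there or within 20 kb of either end. Ikzf3 encodes Aiolos, the family member that rises as pre-B cells mature. It lies on chromosome 11, 98464610 to 98546031 (gene ID 22780). Its peaks at 98476434 to 98476833 and 98481292 to 98481691 were centred 12.0 and 16.9 kb inside the end with the lower coordinate. They were 4.86 kb apart. Of the 3133 pairs of neighbouring peaks in the list, 3.80% were that close or closer, and the median gap was 268 kb. The 81.4 kb body bounds the gap between peaks inside Ikzf3, so the median gap is not a like comparison. Which end of Ikzf3 is its start was not read from the table. The nearest other protein-coding genes, Mien1 and Grb7, begin 18.4 and 21.3 kb from the nearer of these peaks. At least 2 peaks in the body were found in 2.48% of the 4595 genes within 2-fold of the length of Ikzf3.

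Ikzf1, which encodes Ikaros itself, lies on the plus strand of chromosome 11, 11684962 to 11772930 (gene ID 22778). Its one peak within 100 kb, at 11587321 to 11587720, was 97.4 kb upstream of the gene. It was nearer to 4930512M02Rik and Spata48, at 1.70 and 72.3 kb. The peak therefore counts for Ikzf1 only through the width of the window. Ikzf2, which encodes Helios, lies on chromosome 1, 69531207 to 69687351 (gene ID 22779). It had 1 peak 32.0 kb beyond its lower-coordinate end, at 69499019 to 69499418. No other protein-coding gene lay nearer to that peak, and the next, Spag16, was 328 kb from it. This was also the only peak within 500 kb of Ikzf2. The family members outside the list, Ikzf4 and Ikzf5, had their nearest peaks at 131 and 549 kb.

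Of the transcription factor genes, Foxo1 and Pax5 held peaks, and Ebf1 and Bcl11a did not. FOXO1 drives early B-cell genes, Rag1 and Rag2 among them, and is held in check by PI3K signalling. Foxo1 lies on the plus strand of chromosome 3, 52268337 to 52350109 (gene ID 56458). Its peaks, at 52305591 to 52305990 and 52331769 to 52332168, were centred 37.5 and 63.6 kb downstream of the gene's start, or 45.8 and 77.8% of the way along the body. They were 26.2 kb apart, a gap that 12.1% of neighbouring peaks match or undercut, though the 81.8 kb body bounds it. No other protein-coding gene lay within 200 kb of either peak. The nearest, Maml3, was 200471 bp from the first. The share of genes of like length with as many peaks in the body was 2.53% of 4582.

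By peak density in the body and within 100 kb, the protein-coding genes most like Foxo1 among the 651 within 10% of its length were Ikzf3, Grip2 and Art3. Each had 2 peaks in the body and no others within 100 kb. Foxo1 in turn was the nearest to Ikzf3 by this measure, followed by Grip2 and Art3 among 655 genes. Because all had the same peak counts, their order came from body length alone. Bodies were 81.8 kb for Foxo1, 81.4 kb for Ikzf3, 82.5 kb for Grip2 and 82.8 kb for Art3. Of the 651 genes of Foxo1's length, 14 had at least 2 peaks in the body and 563 had none. The likeness is the summed difference in peaks per Mb over both windows, and it takes no account of where in the gene the peaks lie.

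Pax5 encodes the factor that commits cells to the B lineage. It lies on the minus strand of chromosome 4, 44524748 to 44710694 (gene ID 18507). Its single peak, at 44704289 to 44704688, was centred 6.21 kb downstream of the annotated start, 3.34% of the way along the body. The same position lies inside 5730488B01Rik, annotated as a long noncoding RNA gene. The next protein-coding gene, Zcchc7, was 52.1 kb away, and no second peak lay within 500 kb of Pax5. Genes of like length had at least 1 peak in the body in 21.4% of 2245 cases.

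Ebf1, the pioneer factor of the B-cell programme, is the longest of the 10 genes at 389997 bp (plus strand of chromosome 11, 44618100 to 45008096, gene ID 13591) and had no peak. The nearest, at 44504048 to 44504447, lay 114 kb upstream and was nearer to Rnf145, Ublcp1 and Il12b, at 14.5, 33.5 and 89.6 kb. It was the only peak within 500 kb of Ebf1. Of the 919 genes within 2-fold of its length, 59.2% likewise had no peak within 100 kb, body included. Bcl11a encodes a zinc finger repressor needed for the first B-cell precursors. It lies on the plus strand of chromosome 11, 24076564 to 24173558 (gene ID 14025). Its nearest peak, at 24370256 to 24370655, was 197 kb past its end, farther than for any other of the 10 genes. No protein-coding gene other than Bcl11a lay within 400 kb of that peak. Papolg, the next, was 475 kb from it.

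The recombinase genes had no peak close by. Rag1 (minus strand of chromosome 2, 101638252 to 101649532, gene ID 19373) and Rag2 (plus strand, 101624712 to 101632528, gene ID 19374) are neighbours that encode the 2 subunits of the V(D)J recombinase. The nearest peak was the same for both, at 101732801 to 101733200. It lay 83.5 kb upstream of Rag1 and 100472 bp past the end of Rag2, so it counts for Rag1 and falls just outside the window of Rag2. This peak was inside the body of Prr5l and 31.3 kb from Traf6. Rag1 and Rag2 are therefore not independent entries, and the single peak could be given to Prr5l on position alone.

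Ordered by distance to the nearest peak, Ikzf3, Foxo1 and Pax5 stood at 0, Blnk followed at 99 bp, and Ikzf2 at 32.0 kb. Rag1, Ikzf1, Rag2, Ebf1 and Bcl11a came next, at 83.5 kb, 97.4 kb, 100472 bp, 114 kb and 197 kb. The median of the 10 was 57.7 kb, beside 179 kb for all protein-coding genes, and 9 of the 10 were nearer than the latter median. This comparison is not matched for body length, and the regulators have long bodies. Rag1 and Rag2 are both among the 9 through the same peak. Of all protein-coding genes, 7.09% had a peak at least as near as Blnk did, 19.2% as near as Ikzf2, 39.6% as near as Ebf1 and 52.3% as near as Bcl11a. Rag1, Ikzf1, Rag2 and Ebf1 stood between 33.0 and 39.6% on the same scale. Within 500 kb the regulators had 1 to 5 peaks, with a median of 2.5, and protein-coding genes had a median of 2.

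**Figure D4:**
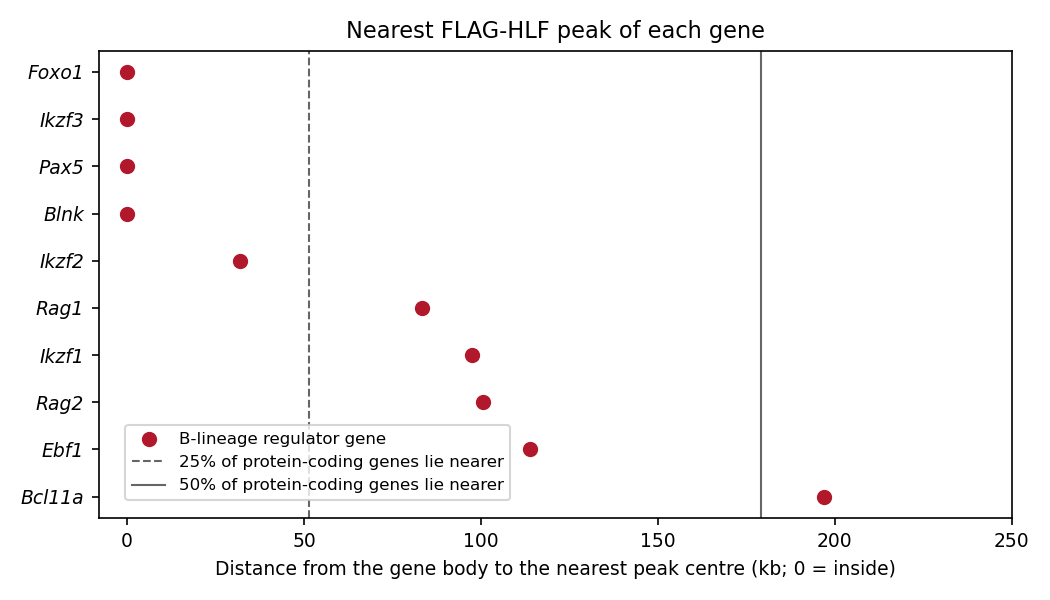
Distance in kb from each gene body to its nearest FLAG-HLF peak centre (red points; 0 means inside). The dashed and solid grey lines mark the distances within which 25% and 50% of protein-coding genes have a peak, not matched for body length. Of the 10 points, 9 lie left of the solid line, and Bcl11a lies right of it. Rag1 and Rag2 share their nearest peak.

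The rest of the pathway was read from 61 further genes in 5 roles, all of them found in the gene table. Of these, 15 (24.6%, 14.5 to 37.3%) had a peak within 20 kb, body included, beside 15.3% of protein-coding genes. Of the 5 roles, transcription factors had the highest share. In that role 8 of 17 genes (47.1%, 23.0 to 72.2%) had such a peak, namely Spi1, Bach2, Spib, Myb, Foxo3, Mef2c, Runx1 and Erg. Shares for genes of like length were not computed for the 5 roles, and long bodies hold more peaks. Bach2, Runx1 and Erg are long, with peaks as far as 337, 218 and 171 kb downstream of their starts. All but Spib had one inside the body. The Spib peak was 17.0 kb upstream of the gene and nearer to Pold1, at 0.298 kb, one of the 2 other protein-coding genes within 20 kb of it. Several of these genes were already known from earlier results of this list to lie near peaks, so their share adds no independent evidence. Foxo3, the close relative of Foxo1, held 1 peak 31.3 kb downstream of its start. Myb, which haematopoietic progenitors need, held 1 at 6.00 kb from its start, a distance like that of Pax5. Tcf3, Lef1, Irf4, Irf8, Ets1, Sox4, Pou2af1, Bcl11b and Zfp521 had none. Tcf3, which encodes E2A, the partner of EBF1 at early B-cell genes, had its nearest peak at 76.6 kb.

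In the pre-B and B cell receptor pathway, where Blnk acts, 4 of 19 genes (21.1%, 6.05 to 45.6%) had a peak in that window. The share of protein-coding genes, 15.3%, lies inside this interval. Syk, the kinase that phosphorylates BLNK, had 1 peak 1.51 kb upstream of its start and 1 at 41.7 kb inside. Lyn, a SRC family kinase of the same receptor, had 1 inside and 1 at 12.7 kb outside. Pik3ap1, encoding the PI3K adaptor BCAP, had 1 at 63.9 kb downstream of its start. Lcp2, encoding SLP-76, the BLNK relative of T cells and myeloid cells, had 1 at 10.5 kb upstream. The receptor's own chains, Cd79a, Cd79b, Igll1 and Vpreb1, had none in this window.

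Among V(D)J joining genes 1 of 10 had a peak in this window (10.0%, 0.253 to 44.5%), beside 15.3% of protein-coding genes. Dclre1c, which encodes Artemis, the nuclease that opens the hairpins left by RAG1 and RAG2, had 1 centred 210 bp upstream of its start. Meig1, the next gene, was 1.20 kb from that peak. None of the planned PAR bZIP sites, nor any match to TTACNNAA, was in the Dclre1c window, which the peak touched in part. The window begins at 3423881, past the centre of the peak at 3423652 to 3424051, so the bases at the centre were not searched. GGAAGT was in the window, in a part beyond the peak. Among genes of cytokine signals 2 of 13 had a peak (15.4%, 1.92 to 45.4%), a share near the 15.3% of protein-coding genes. They were Flt3, with 2 in the body at 7.64 and 11.4 kb from its start, and Jak3, with 1 at 4.65 kb upstream that lies inside Unc13a. Il7r encodes a receptor for IL-7, which the culture medium held beside SCF, Flt3L and IL-3. The nearest peak to Il7r was at 879 kb, and that to Kit, in the same role, was at 74.3 kb.

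**Figure D5:**
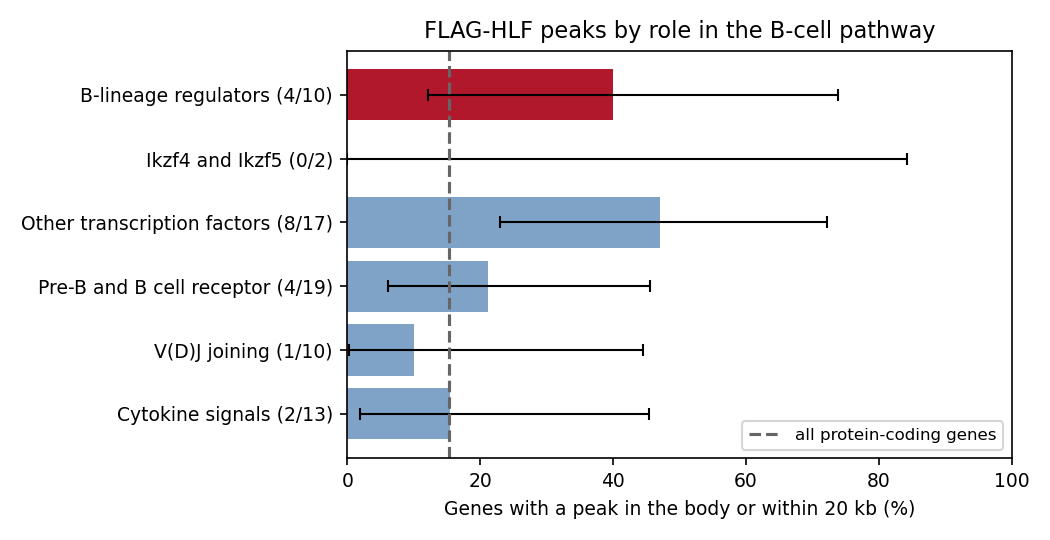
Percent of genes with a FLAG-HLF peak within 20 kb, body included, for the 10 B-lineage regulators (red) and 61 other pathway genes by role (blue), with exact 95% intervals. The dashed line is the 15.3% of all protein-coding genes, not matched for body length. The bars run from 0 of 2 genes for Ikzf4 and Ikzf5 to 8 of 17 for the other transcription factors, several of which were known to lie near peaks when the list was made.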

How the data were processed

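The authors deposited 1 BED peak list for the FLAG-HLF library; it holds start and end coordinates (other values are absent) in 3 columns with no header, and every interval is 400 bp wide. The submitters' processing notes name Bowtie2 2.0.6, MACS2 2.0.10 and mm10, without their roles. How peaks were called and set to one width is not given in the sources used here. A fixed width hides how far enrichment reached, and no score separates strong peaks from weak ones.

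A peak's position was its BED start plus 200 bp. Genes came from a RefSeq table of GRCm38.p6, which shares coordinates with mm10. Rows on chromosomes 1 to 19 and X starting at or above 3 Mb were used (49214 of 49997). Strand and promoter sequence came from the RefSeq promoter table of the same build, and no genome sequence was used here. Shares carry exact Clopper-Pearson and densities exact Poisson 95% intervals, for counting error only. Peaks and neighbouring genes are not independent. No test over samples could be made. Window counts were checked on simulated peaks against bedtools 2.31.1; Python 3.11.15, pandas 2.3.3 and SciPy 1.17.1 were used.

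The members and lists were chosen with earlier results of these data known. All 10 members are named. Of other pathway genes, those with a peak within 20 kb, body included, are named, together with some without one, picked as well known genes of the pathway after their values were seen. Neighbours nearer to a peak than a member are named too. TTACNNAA, TTACACAA and GGAAGT were added after the Blnk sequence was seen.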

Additional observations from a re-analysis of the deposited data

How the results depend on the processing

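The counts of regulators with a peak stayed within 1.5-fold of the main counts, the limit used here for calling them the same. With 10 genes, a main count of 7 cannot rise past that limit, so the 200 kb flank could not fail it. The limit is wide for counts this small. Counting any overlap of the 400 bp interval gave 4 genes in the body, where Blnk joined, and left 4 within 20 kb and 7 within 100 kb. Flanks of 5, 10 and 50 kb gave 4, 4 and 5 genes, beside 9.58, 11.6 and 24.6% of protein-coding genes. A flank of 200 kb gave 10, beside 52.6% of protein-coding genes and 56.2% of those of like length. Giving each peak only to the nearest protein-coding gene left 4 within 20 kb and 5 within 100 kb, because Ikzf1 and Rag1 dropped out. Merging peaks within 1 kb left 9. The background share within 20 kb was 15.3% over protein-coding genes, 10.8% over every annotated gene and 21.7% over genes of like length. It was 15.9% over autosomal genes, an alternative chosen after seeing the data. The choice of genes is the cause by construction. A stricter peak threshold was not run, since the list has no score. No paired analysis was possible because there is 1 library, which also leaves no replicate to omit. Unknown depth limits every absence: a gene without a listed peak may still be bound below the peak threshold.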

Other observations

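In promoter windows touched by a peak, the perfect palindrome was the rarest of the forms searched. TTACGTAA was in 1 of the 227 promoter windows touched by a peak (0.441%) and in 0.119% of all 32851 windows. TTACATAA was in 14 of the 227 (6.17%) and 0.938% of all windows, and TTACGCAA, a hybrid of PAR bZIP and C/EBP letters, was in 11 of the 227 (4.85%) and 0.167% of all windows. TTACACAA, the form in Blnk, was in 25. The distinct TTACACAA matches had a median distance of 14.5 bp from the peak centre, those of TTACGCAA 17.5 bp and those of TTACATAA 44.0 bp, while GGAAGT matches had 89.0 bp. TTACACAA and TTACGCAA each had 54.5% of their matches within 20 bp of the centre, and GGAAGT had 6.82%. These are descriptions of promoter windows touched by peaks of 1 list, and most of its peaks touch no window and were not searched. The letters other than the planned sites were picked after the Blnk sequence was seen.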
